A study of Mus musculus with 13 samples.

Results

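The genes described here are 8 components of purinergic signalling in microglia, the resident macrophages of the brain: the P2Y receptors P2ry12, P2ry13, P2ry6 and P2ry14, the P2X receptors P2rx4 and P2rx7, the adenosine receptor Adora3 and the ectonucleotidase Entpd1. They were taken by symbol from a table of 19737 genes, and all 8 were present. RNA from mouse microglia was sequenced in 13 libraries in 4 groups, in a study of double-stranded circular RNA (ds-cRNA) delivered to neurons. The first 3 groups carried a viral vector, the adeno-associated virus AAV PHP.eB, a capsid made to reach the brain from the blood. Wild type mice received the vector with EGFP, a fluorescent protein (3 libraries), 5xFAD mice received the same EGFP vector (2 libraries), and 5xFAD mice received the vector with circPOLR2A, a circular RNA (4 libraries). The 5xFAD line is a model of amyloid deposition that expresses mutant human amyloid precursor protein and presenilin from a neuronal promoter. The remaining group was 5xFAD mice with a knockout of PKR, the double-stranded RNA-activated kinase encoded by Eif2ak2 (4 libraries), for which the labels name no vector. Age and sex are not given in the sources used here. In the labels the treatment is not the same for the 4 circRNA libraries, which name circPOLR2A(9,10), (9,11), (9,12) or (9,13), and whether they were 1 construct is not settled. The labels do not say that the libraries of a group came from separate animals, so the p-values measure the spread between these libraries, which may be technical.

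As background, ATP and ADP leave damaged or active cells and act on 2 receptor families: P2X receptors are ATP-gated cation channels, and P2Y receptors couple to G proteins. Microglia use P2ry12, the ADP receptor that steers their processes toward a lesion, as part of their resting programme, and its transcript is a common marker of homeostatic microglia. Entpd1, known as CD39, hydrolyses ATP and ADP to AMP at the cell surface, and adenosine made from AMP acts on receptors such as Adora3.

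The genes P2ry12, P2ry13 and P2ry14 lie together on chromosome 3 (GRCm38) on the minus strand: P2ry14 at chr3:59113855-59153618, P2ry13 at chr3:59207892-59210882 and P2ry12 at chr3:59216272-59262871, with 5390 bases between P2ry13 and P2ry12. All 3 lie within Med12l, which runs on the plus strand. Both P2X genes lie on the plus strand of chromosome 5, P2rx7 at chr5:122643911-122691432 and P2rx4 at chr5:122707544-122729738, 16112 bases apart. P2ry6 is at chr7:100937630-100974649 (minus), Adora3 at chr3:105870858-105908926 (plus) and Entpd1 at chr19:40612366-40741602 (plus). The 250 bases before the first RefSeq start (GRCm38.p6) are shown for P2ry12, P2ry13 and P2rx4, the members whose levels passed a test, 5′ to 3′ on the gene's own strand. They are at chr3:59262986-59263235 (minus), chr3:59210883-59211132 (minus) and chr5:122707294-122707543 (plus). Capitals mark AGGAAG, the core of sites bound by the macrophage factor PU.1, and the E-box CACGTG, searched on both strands.
P2ry12: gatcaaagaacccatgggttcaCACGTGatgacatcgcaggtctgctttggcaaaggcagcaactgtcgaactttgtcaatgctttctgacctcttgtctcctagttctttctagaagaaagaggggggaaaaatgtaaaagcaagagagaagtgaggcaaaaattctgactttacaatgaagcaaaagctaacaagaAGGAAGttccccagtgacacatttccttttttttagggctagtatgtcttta
P2ry13: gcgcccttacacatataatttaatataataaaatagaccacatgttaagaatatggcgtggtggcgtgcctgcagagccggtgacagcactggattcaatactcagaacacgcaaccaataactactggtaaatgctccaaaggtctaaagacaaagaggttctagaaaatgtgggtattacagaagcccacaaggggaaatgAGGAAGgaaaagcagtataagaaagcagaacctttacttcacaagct
P2rx4: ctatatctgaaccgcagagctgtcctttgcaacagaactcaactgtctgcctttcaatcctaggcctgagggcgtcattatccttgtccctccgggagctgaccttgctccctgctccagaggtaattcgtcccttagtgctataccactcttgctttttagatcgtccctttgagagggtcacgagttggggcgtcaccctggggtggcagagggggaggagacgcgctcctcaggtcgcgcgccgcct

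Of the 32851 RefSeq promoter windows of this length, 29.5% hold AGGAAG, 6.02% hold CACGTG and 6.75% hold TGANTCA, the letters of an AP-1 site, which does not overlap the other 2 motifs in these windows. P2ry12 and P2ry13 each hold 1 AGGAAG, beginning 52 and 47 bases before the start, and P2ry12 also holds 1 CACGTG, 228 bases before it. The P2rx4 window holds none of the 3 motifs. Its GC content was 57.2%, against 41.6% for both P2ry12 and P2ry13 and a median of 52.4% over all windows. The motifs were chosen with the sequences in view, and a match is a description of letters only.

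Between 45.19 and 70.01 M fragments per library were recovered from the deposited FPKM values (fragment counts scaled to gene length and library size), with 45.19 to 54.89 M in the 3 vector groups and 57.71 to 70.01 M in the PKR KO group. Every microglial marker on the list was present in every library, and the 9 summed to between 2488 and 4399 FPKM. Markers of other brain cells were also present, with summed oligodendrocyte markers between 156 and 1092 FPKM. Wild type replicate 3 stood apart: its oligodendrocyte markers summed to 1092 FPKM, the highest of all libraries, its mean log2 level of the microglial markers was 7.34 against 7.94 and 7.99 in the other wild type libraries, and it had the lowest wild type level of every member but P2ry14. Vessel markers were higher in wild type than in every 5xFAD library for mural cells (35.6 to 75.5 against 11.9 to 27.0 FPKM), and border macrophage markers likewise (34.7 to 54.9 against 12.8 to 23.8 FPKM). Their part in the results was not tested. In bulk RNA, fewer cells of a type and less RNA per cell cannot be told apart. Eif2ak2, the gene named by the PKR KO label, was at 3.31 to 4.61 FPKM in the PKR KO libraries, below all other 5xFAD libraries (6.49 to 8.11 FPKM) and overlapping the wild type ones (4.14 to 5.23 FPKM). Its log2 change was -0.27 in PKR KO against wild type (limma adjusted p = 0.0486), -0.64 in PKR KO against 5xFAD EGFP (0.0644), and 0.84 in circRNA against PKR KO (0.00147). The allele and the part of the gene it removes are not given in the sources used here, so the transcript level alone does not check the label. A separate style of library name occurs only in the PKR KO group, so library batch and knockout cannot be told apart. The labels name no vector for that group either, so any difference in vector cannot be told apart from the knockout.

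P2ry12 was the highest of the members in all 13 libraries, ranking between 30 and 105 by level among all genes of the table. Its level was 421, 389 and 248 FPKM in wild type, 244 and 241 FPKM in 5xFAD EGFP, 261, 312, 279 and 211 FPKM in 5xFAD circRNA, and 153, 179, 192 and 193 FPKM in 5xFAD PKR KO. All 4 PKR KO libraries were below all other libraries. The 2 EGFP-treated 5xFAD libraries were below the lowest wild type library by a few FPKM, while the circRNA libraries spanned both. Against wild type, P2ry12 fell in the PKR KO group, by 0.94 on the log2 scale with an SE of 0.188 (adjusted p = 0.00227 by limma), to a group mean of 179 ± 18.6 FPKM (SD, n = 4) against 353 ± 92.2 FPKM (SD, n = 3). For 5xFAD EGFP against wild type the log2 change was -0.50 (95% interval -0.99 to -0.01, adjusted p = 0.178 by limma), and for circRNA it was -0.38 (adjusted p = 0.162 by limma), so neither passed. Both did with wild type replicate 3 left out, at -0.74 (limma adjusted p = 0.0146) and -0.62 (limma adjusted p = 0.0119). Without wild type replicate 1 or 2 the EGFP change was -0.36 or -0.41 (limma adjusted p = 0.407 and 0.338). Over the refits with 1 library left out, the circRNA change was as small as -0.24, and its limma adjusted p was at most 0.429. With all libraries kept, both also passed under 4 alternatives: libraries rescaled to the same sum (log2 change -0.67 in both, limma adjusted p = 0.0295 and 0.00823), quantile normalization (both -0.86, limma adjusted p = 0.00409 and 7.13e-04), library weights (0.0191 and 0.0155) and the summed markers of other cells as a covariate (0.0169 and 0.00716). Under these 4 alternatives 18.2% to 34.3% of all genes passed for EGFP and 27.2% to 52.5% for circRNA. In the fit used here the shares were 14% and 25.8%. With median-ratio scaling the EGFP change of P2ry12 was -0.43 (limma adjusted p = 0.249). Quantile normalization took the PKR KO change to -1.50.

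P2ry13, a second ADP receptor coupled to inhibitory G proteins, followed the order of its neighbour. It was at 174, 176 and 116 FPKM in wild type, 121 and 125 FPKM in 5xFAD EGFP, 133, 161, 150 and 111 FPKM in 5xFAD circRNA, and 72.0, 96.6, 89.2 and 97.3 FPKM in 5xFAD PKR KO. The PKR KO libraries again lay below all others, and the other 3 groups overlapped. P2ry13 fell in PKR KO against wild type by 0.78 on the log2 scale (SE 0.174, limma adjusted p = 0.00444), and by 1.43 with quantile normalization. It was higher with circRNA than in the PKR KO by 0.64 on the log2 scale (SE 0.161, adjusted p = 0.0408 by limma), although leaving out any 1 of the 8 libraries compared, other than circRNA replicate 4, took the adjusted p to between 0.0554 and 0.118. It also did not pass with no filter (limma adjusted p = 0.0687) or a filter of 0.1 FPKM (0.0522), nor with median-ratio scaling or a block for the replicate number, as given below. P2ry12 did not overlap between these groups either, at 0.56 (95% interval 0.18 to 0.94), and did not pass (limma adjusted p = 0.0746). Its limma adjusted p ran from 0.00341 to 0.164 over the alternatives. In the EGFP-treated 5xFAD libraries the log2 change of P2ry13 from wild type was -0.31 (95% interval -0.76 to 0.14, adjusted p = 0.382 by limma). It passed with quantile normalization, at -0.76 (limma adjusted p = 0.00735), and was -0.51 without wild type replicate 3 (limma adjusted p = 0.0673). With circRNA the P2ry13 change from wild type was -0.15 (adjusted p = 0.588 by limma), and it passed under 2 of 11 alternatives, reaching -0.72 (limma adjusted p = 0.00223).

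The level of P2ry12 over that of P2ry13 stayed in a narrow band in every library. Their ratio of FPKM was 2.14 to 2.41 in wild type, 1.93 to 2.02 in 5xFAD EGFP, 1.86 to 1.97 in 5xFAD circRNA and 1.85 to 2.16 in 5xFAD PKR KO. The wild type range overlapped only that of the PKR KO. Med12l, the host gene on the opposite strand, was at 2.42 to 3.39 FPKM and passed in none of the 6 comparisons on the deposited scale. The library kit keeps strand, but the strand setting of the counting is not given in the sources used here, so reads of Med12l within these genes cannot be told apart from theirs. In level Med12l was far below P2ry12 and P2ry13, which were at 72.0 FPKM or more, and above P2ry14, at most 0.305 FPKM.

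P2ry6, the UDP receptor that triggers phagocytosis in microglia, showed no such order. It was at 40.6, 37.8 and 23.0 FPKM in wild type, 29.1 and 29.4 FPKM in 5xFAD EGFP, 27.5, 37.1, 40.1 and 25.7 FPKM in 5xFAD circRNA, and 28.5, 31.6, 30.6 and 30.7 FPKM in 5xFAD PKR KO. The wild type and circRNA libraries each spanned the whole range of the other 2 groups. No comparison passed for P2ry6 in the fit used here, and the change in PKR KO against wild type was -0.11 on the log2 scale (95% interval -0.52 to 0.30). That change passed with the markers of other cells as a covariate, at -0.42 (limma adjusted p = 0.00757). In circRNA against PKR KO the limma adjusted p of P2ry6 ran from 0.0473 to 0.949 over the alternatives.

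P2ry14, a receptor for UDP-glucose, was near the limit of these libraries, with 33 to 170 fragments and a level of 0.0544 to 0.305 FPKM. It was at 0.266, 0.110 and 0.305 FPKM in wild type, 0.109 and 0.0544 FPKM in 5xFAD EGFP, 0.111, 0.168, 0.150 and 0.148 FPKM in 5xFAD circRNA, and 0.108, 0.101, 0.127 and 0.0649 FPKM in 5xFAD PKR KO. In wild type, replicates 1 and 3 exceeded every 5xFAD library and replicate 2 did not. P2ry14 was below the filter of a mean of 1 FPKM, so 7 of the 8 members were tested. In a limma fit with no filter the log2 change of FPKM + 1 in PKR KO against wild type was -0.15 (adjusted p = 0.0297), and with a filter of 0.1 FPKM the adjusted p was 0.0524. A change on that scale understates the ratio of such low levels. P2ry14 also lies within Med12l, which was at 2.42 to 3.39 FPKM, and any reads of Med12l counted for it cannot be told apart.

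**Figure D1:**
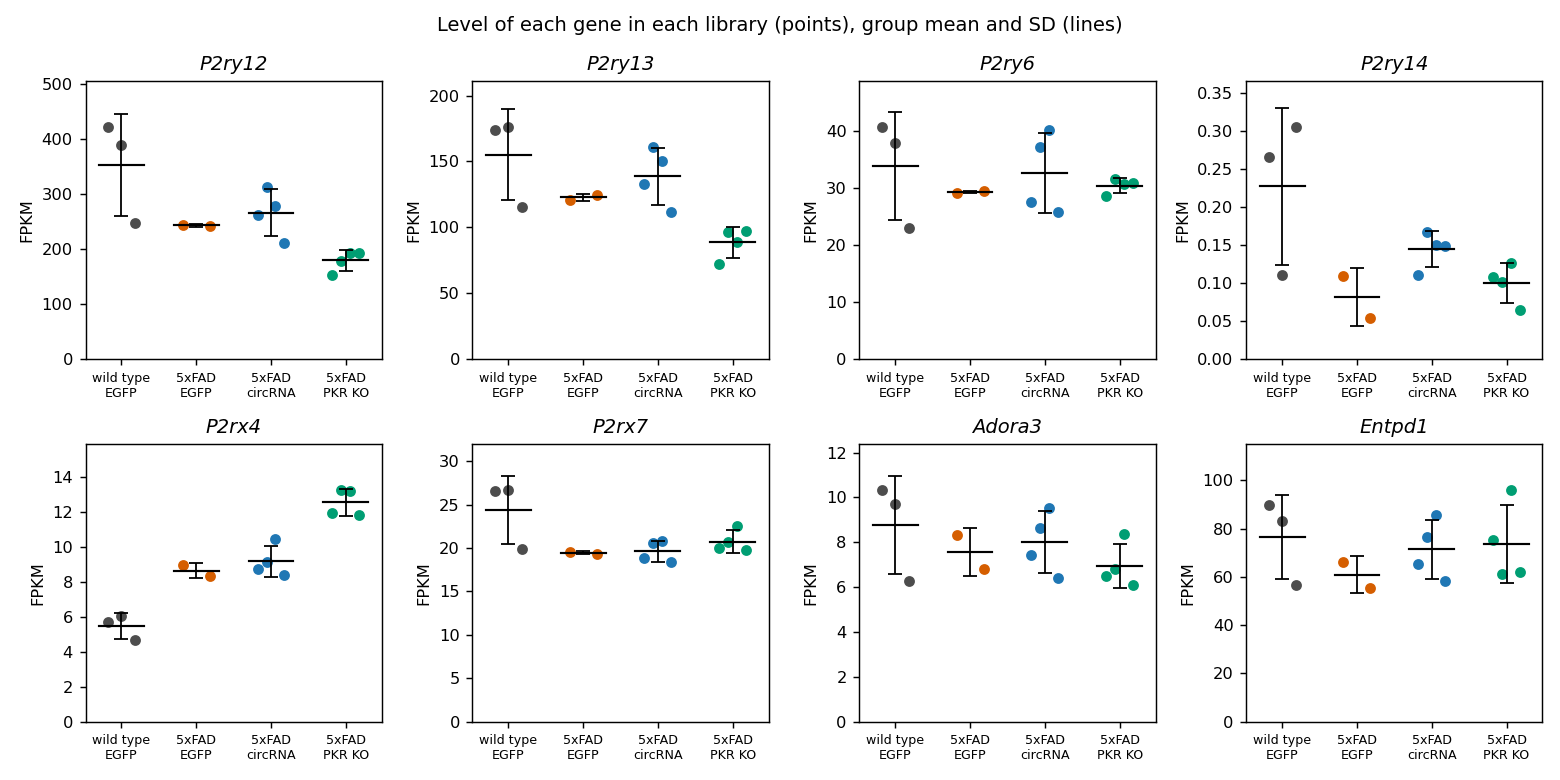
Level of each of the 8 genes in FPKM (vertical axes, linear from 0) in each of the 13 libraries (points, by group), with the group mean and SD (lines). The 4 PKR KO libraries lie lowest for P2ry12 and P2ry13 and highest for P2rx4 (11.8 to 13.3 FPKM), while the groups overlap for P2ry6, Adora3 and Entpd1.

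P2rx4, an ATP-gated channel found largely on lysosomes and raised in reactive microglia, ran the other way. It was at 5.71, 6.05 and 4.65 FPKM in wild type, 8.96 and 8.34 FPKM in 5xFAD EGFP, 8.76, 9.14, 10.4 and 8.43 FPKM in 5xFAD circRNA, and 11.9, 13.3, 13.2 and 11.8 FPKM in 5xFAD PKR KO. All 10 5xFAD libraries were above all wild type ones, the 2 vector groups of 5xFAD overlapped, and the PKR KO libraries were above all others.

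Against wild type P2rx4 rose in each 5xFAD group. The log2 change was 0.58 in 5xFAD EGFP (SE 0.109, limma adjusted p = 0.00415), 0.66 in 5xFAD circRNA (SE 0.0912, limma adjusted p = 2.24e-04) and 1.07 in 5xFAD PKR KO (SE 0.0912, limma adjusted p = 3.55e-06). These 3 comparisons share their wild type libraries. The first rests on 2 libraries: without 5xFAD EGFP replicate 1 its limma adjusted p was 0.0505, and with only its 2 groups in the fit it was 0.0662. The other 2 passed under all 11 alternatives tried and with any 1 library of the groups compared left out, the circRNA change being 0.40 with libraries rescaled to the same sum.

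Within 5xFAD, P2rx4 was lower with circRNA than in the PKR KO, by a log2 change of -0.41 with an SE of 0.0845 (adjusted p = 0.0187 by limma). Leaving out circRNA replicate 1 or PKR KO replicate 1, 2 or 3 took that adjusted p to between 0.0506 and 0.0639. For PKR KO against 5xFAD EGFP the log2 change was 0.49 (95% interval 0.26 to 0.71), with no overlap between the groups, and it did not pass over all genes (limma adjusted p = 0.116). It passed when only these 2 groups were fitted (limma adjusted p = 0.0130) and with libraries weighted by their quality (limma adjusted p = 0.00553), and reached the threshold with median-ratio scaling. Between circRNA and EGFP within 5xFAD the log2 change was 0.08 (95% interval -0.15 to 0.30).

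P2rx7, the low-affinity ATP channel upstream of the inflammasome, lies next to P2rx4 but did not follow it. Its level was 26.5, 26.7 and 19.9 FPKM in wild type, 19.6 and 19.3 FPKM in 5xFAD EGFP, 18.9, 20.6, 20.8 and 18.4 FPKM in 5xFAD circRNA, and 20.0, 20.7, 22.6 and 19.7 FPKM in 5xFAD PKR KO. Wild type replicates 1 and 2 were above every 5xFAD library, and wild type replicate 3 lay within their range.

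The log2 change of P2rx7 against wild type was -0.30 in 5xFAD EGFP (limma adjusted p = 0.131), -0.29 in 5xFAD circRNA (limma adjusted p = 0.0542) and -0.21 in 5xFAD PKR KO (limma adjusted p = 0.118). None of these passed. Leaving out wild type replicate 3, all 3 did, at -0.43, -0.42 and -0.35 (limma adjusted p = 0.00737, 0.00214 and 0.00561). With the summed markers of other cells as a covariate all 3 passed as well (limma adjusted p = 0.0103, 0.00126 and 0.00157), as they did with libraries rescaled to the same sum (0.0115, 8.55e-04 and 0.00266), quantile normalization (0.0149, 9.63e-04 and 0.00254) and library weights (0.00849, 0.00184 and 0.00991). Rescaling to the same sum shifted the median of all genes by a like amount, and 34.3%, 52.5% and 61.0% of all genes passed under it. Median-ratio scaling took the PKR KO change to -0.11 and the circRNA adjusted p to 0.0419.

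The ratio of the 2 channels within a library, in which any factor common to the whole library cancels, separated the groups with little spread. P2rx7 over P2rx4 was 4.65, 4.41 and 4.28 in wild type, 2.19 and 2.32 in 5xFAD EGFP, 2.15, 2.25, 1.99 and 2.18 in 5xFAD circRNA, and 1.68, 1.56, 1.71 and 1.67 in 5xFAD PKR KO. Wild type replicate 3, which stood apart in level, lay close to its group in this ratio. P2ry12 over P2rx4 was likewise highest in wild type and lowest in the PKR KO, with 53.2 to 73.7 in wild type, 27.2 to 28.9 in 5xFAD EGFP, 25.1 to 34.2 in 5xFAD circRNA and 12.8 to 16.3 in 5xFAD PKR KO. For both ratios the wild type and PKR KO ranges overlapped with no other group, and the 2 vector groups of 5xFAD overlapped each other. The ratios were chosen with the levels in view and were not tested.

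**Figure D2:**
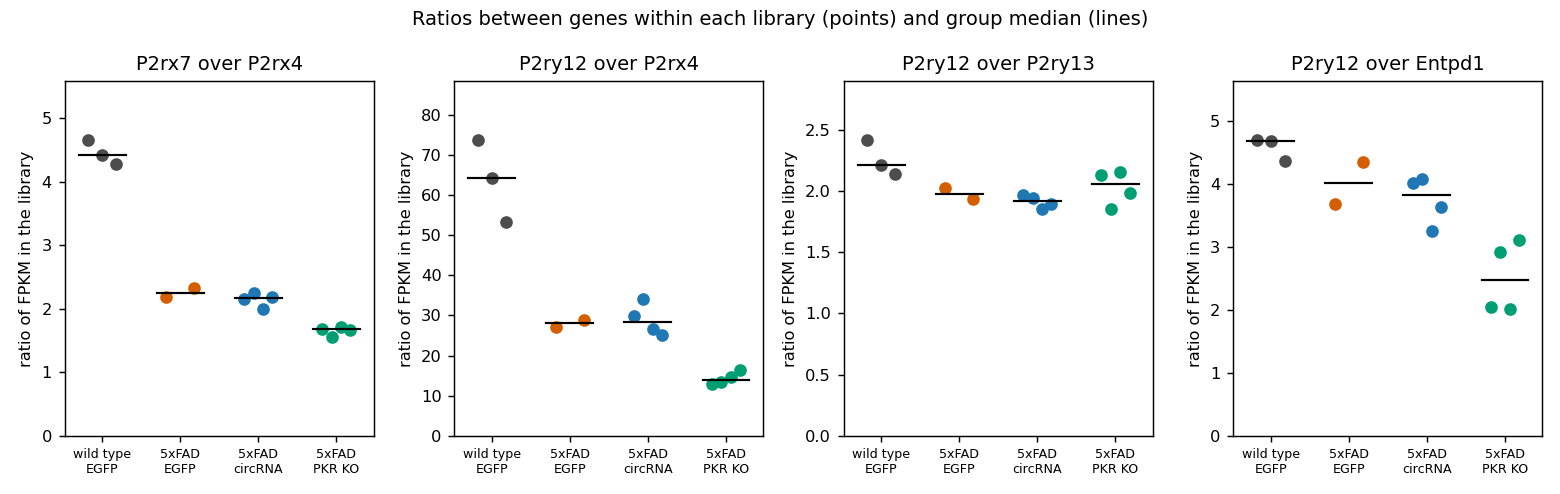
Ratio of FPKM between 2 genes within each library (points, linear axes from 0), by group, with group medians (lines). P2rx7 over P2rx4 lies at 4.28 to 4.65 in wild type, near 2 in both vector groups of 5xFAD and at 1.56 to 1.71 in the PKR KO, while P2ry12 over P2ry13 lies between 1.85 and 2.41 in all libraries.

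Adora3, the G protein-coupled A3 adenosine receptor, was at 10.3, 9.72 and 6.29 FPKM in wild type, 8.33 and 6.80 FPKM in 5xFAD EGFP, 7.42, 8.65, 9.54 and 6.39 FPKM in 5xFAD circRNA, and 6.51, 6.79, 8.38 and 6.11 FPKM in 5xFAD PKR KO. All 4 groups overlapped and no comparison passed. Of its 6 changes the furthest from 0 was -0.28 on the log2 scale, in PKR KO against wild type (95% interval -0.64 to 0.07, limma adjusted p = 0.196), and it passed once wild type replicate 3 was left out, at -0.48 (adjusted p = 0.0228 by limma). It also passed with libraries rescaled to the same sum (limma adjusted p = 0.0145), library weights (0.0346) and the markers of other cells as a covariate (0.00418). In circRNA against PKR KO the limma adjusted p of Adora3 ran from 0.0410 to 0.833 over the alternatives. Adora3 shares part of its locus and strand with Tmigd3, at a mean of 0.109 FPKM, so the split of reads between the 2 is uncertain.

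Entpd1 was at 89.7, 83.2 and 56.8 FPKM in wild type, 66.4 and 55.5 FPKM in 5xFAD EGFP, 65.2, 76.7, 85.6 and 58.2 FPKM in 5xFAD circRNA, and 75.2, 61.4, 96.0 and 62.0 FPKM in 5xFAD PKR KO. The spread within groups was as wide as that between them, and no comparison passed. In PKR KO against wild type the log2 change was -0.05 (95% interval -0.48 to 0.38), beside -0.94 for P2ry12 in the same libraries. With quantile normalization Entpd1 passed there at -0.48 (limma adjusted p = 0.0426), beside -1.50 for P2ry12, and in circRNA against wild type its lowest limma adjusted p over the alternatives was 0.0458.

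The order of the members by FPKM, a scale per gene length, was nearly fixed. P2ry12 was first and P2ry14 last in all 13 libraries, and P2ry6 was above P2rx7 in each. P2rx4 was below Adora3 in all 3 wild type libraries and above it in all 10 of 5xFAD, and Entpd1 was above P2ry13 in 2 of the 4 PKR KO libraries and in no other library.

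By comparison, 1 of the 7 members tested passed in 5xFAD EGFP against wild type (P2rx4, higher), beside 14% of the 10817 genes tested, 7.65% higher and 6.35% lower. In circRNA against wild type 1 passed (P2rx4, higher), beside 25.8% of all genes, 17.8% higher and 8.05% lower. In PKR KO against wild type 3 passed, P2rx4 higher and P2ry12 and P2ry13 lower, beside 37.0% of all genes, 17.5% higher and 19.4% lower. The shares of members called, 14.3%, 14.3% and 42.9%, were near or below those of all genes.

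In circRNA against PKR KO 2 passed, P2ry13 higher and P2rx4 lower with circRNA, beside 6.19% of all genes, 4.28% higher and 1.91% lower. In PKR KO against 5xFAD EGFP limma called 0 members, with 2 at an unadjusted p below 0.05, beside 0.0832% of all genes in either direction, all of them higher (0.0832%). With circRNA against 5xFAD EGFP limma called 0 members, 0 at an unadjusted p below 0.05, and 0% of all genes, of which 523 had an unadjusted p below 0.05. The voom fit to recovered fragments also called 0 members in both. The 95% intervals of all 7 members in that comparison span 0, and the widest, for Entpd1, ran from -0.27 to 0.70 on the log2 scale.

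**Figure D3:**
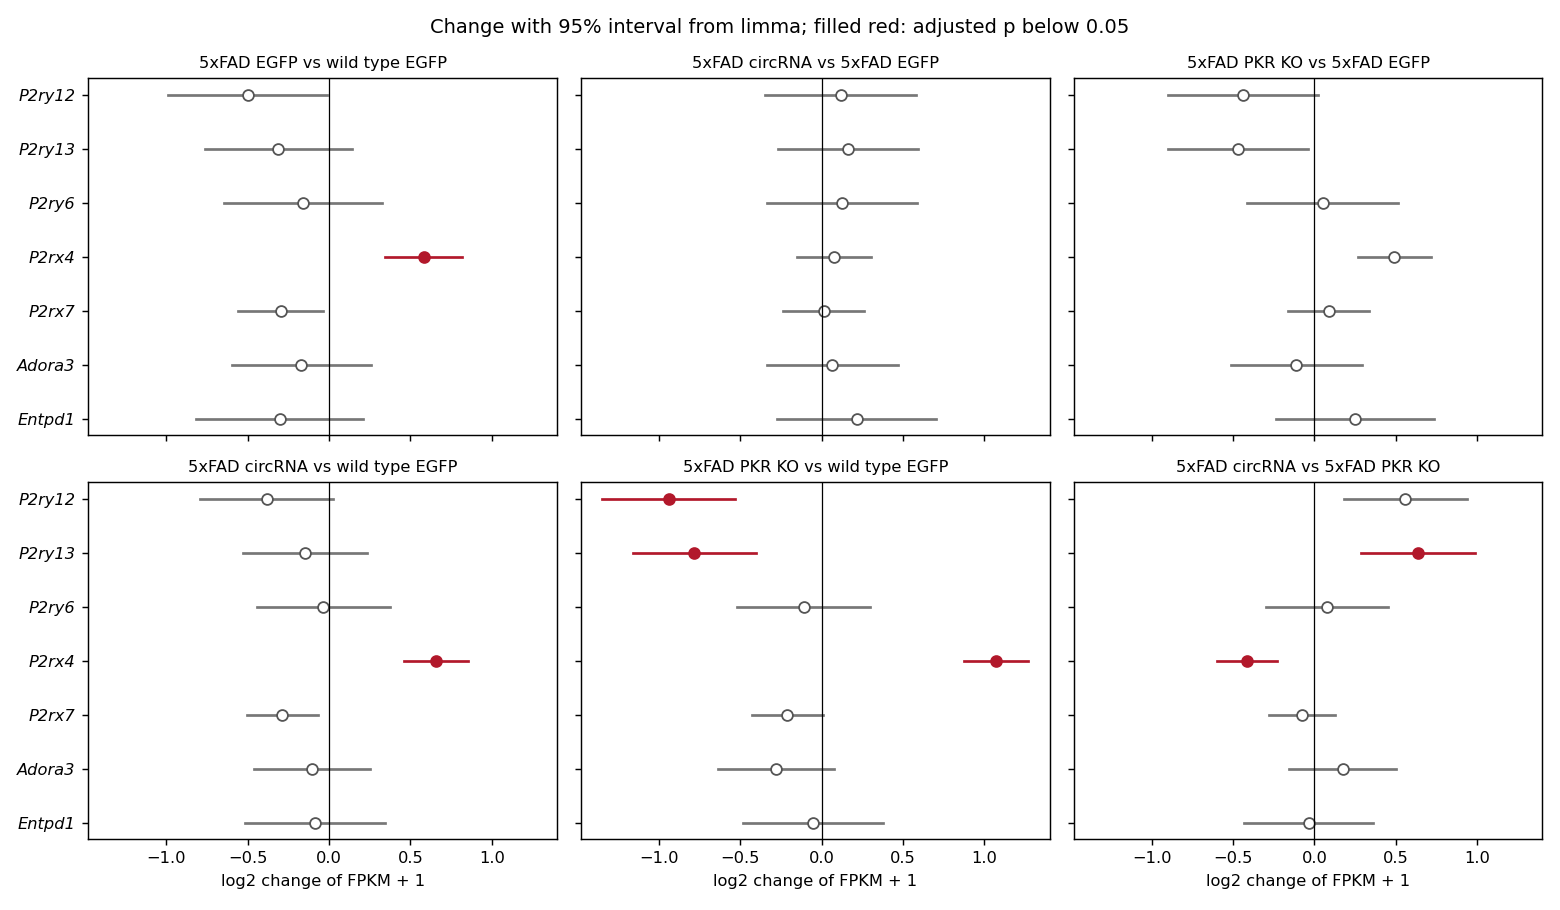
Log2 change of FPKM + 1 (horizontal axis) of the 7 genes tested in the 6 comparisons, with 95% intervals from limma (lines), filled red where the adjusted p was below 0.05. P2rx4 lies right of 0 against wild type in all 3 comparisons, from 0.58 to 1.07, and P2ry12 and P2ry13 lie furthest left in PKR KO against wild type, at -0.94 and -0.78.

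The scaling of the libraries moved the background of these counts. With each library rescaled to the same FPKM sum, the median change of all genes against wild type was -0.17, -0.20 and -0.24 in the EGFP, circRNA and PKR KO groups, in place of -0.03, 0.02 and -0.05. The share of called genes that were higher then went from 54.6% to 19.1%, from 68.9% to 17.5% and from 47.5% to 17.8%. With median-ratio scaling it went from 69.1% to 17.5% in circRNA against PKR KO and from 47.5% to 65.6% in PKR KO against wild type. P2rx4 against wild type and P2ry12 and P2ry13 in PKR KO against wild type kept their direction and passed under each of the 3 scalings tried, and P2ry13 in circRNA against PKR KO did not pass with median-ratio scaling (limma adjusted p = 0.0916).

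Within groups, the members rose and fell between libraries with the level of the microglial marker transcripts. The deviation of each tested member from its group mean had a Pearson correlation with that of the mean log2 microglial marker level of 0.75 (Entpd1) to 0.98 (P2ry6) over the 13 libraries, and of -0.66 (Entpd1) to -0.92 (P2rx7) with the summed markers of other cells. Without the 2 libraries farthest from the median of each measure, the first ran from 0.54 (Entpd1) to 0.95 (P2ry6), with 0.64 for P2ry12 and 0.68 for P2ry13, and the second, without wild type replicates 2 and 3, from -0.52 to -0.86. For P2rx4 the first was 0.90, so within a group it followed the other members, whereas between wild type and PKR KO it moved opposite to P2ry12. The points share depth and library, and no p is given.

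Likeness was measured as the Pearson correlation of log2 levels over the 13 libraries, which include the group differences. The genes most like P2ry12 were Tlr3 (r = 0.98), Agps (0.98) and Celf2 (0.97), and the gene most like P2ry13 of all those tested was P2ry12 (0.97), followed by Lnpep and Tmem135 (both 0.96). P2rx4 was most like Myo1f (0.98), Myo9b (0.98) and Cd83 (0.97), and its neighbour P2rx7 was most like Il6ra (0.97), Gm43720 and Hs6st1 (both 0.96). P2ry6 was most like Lyn (0.95), Csf1r (0.94) and Rgmb (0.93), Adora3 most like Tlr4, Pigc and Tmem69 (all 0.93), and Entpd1 most like LTO1, Cybc1 (both 0.93) and Rnase4 (0.91). P2ry12 and P2rx4 had a correlation of -0.71 with each other over the 13 libraries, so they could not share a gene this near to both.

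Genes within 100000 bases gave another view of the P2X locus. Camkk2, a calcium/calmodulin-dependent kinase kinase gene that ends 1432 bases past P2rx4 on the opposite strand, was at 4.46 to 5.73 FPKM in wild type and 6.12 to 7.18 FPKM in PKR KO. It rose in PKR KO against wild type (log2 change 0.34, limma adjusted p = 0.00970), though with libraries rescaled to the same sum its limma adjusted p was 0.221. In EGFP-treated 5xFAD, where P2rx4 passed, the log2 change of Camkk2 from wild type was 0.04 (adjusted p = 0.858 by limma). Like P2rx4 it was lower with circRNA than in PKR KO (-0.31, limma adjusted p = 0.0458), a call that held in 0 of 8 refits with 1 library left out. As the strand of counting is not known, reads that run past either gene's end cannot be told apart.

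The wider set of purinergic genes held 45 others, of which 22 passed the filter on low values. In 5xFAD EGFP against wild type 4 passed, 2 higher and 2 lower, and in circRNA against wild type 6 passed, 3 in each direction. In PKR KO against wild type 9 passed, 3 higher and 6 lower. The shares, 18.2%, 27.3% and 40.9%, were close to those of all genes given above. In the 3 comparisons within 5xFAD limma called 0, with 1, 3 and 8 at an unadjusted p below 0.05 (circRNA against EGFP, PKR KO against EGFP and circRNA against PKR KO), and the voom fit called 0, 0 and 1.

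Among the hydrolases, Enpp1, which cleaves ATP to AMP and pyrophosphate, rose against wild type in every 5xFAD group, with log2 changes of 0.50, 0.61 and 0.64 (limma adjusted p = 0.00541, 1.77e-04 and 9.87e-05). It was at 0.955 to 0.996 FPKM in wild type and 1.63 to 2.37 FPKM in 5xFAD, with no overlap. Entpd7, an intracellular relative of Entpd1, also rose in all 3, from a wild type mean of 1.74 ± 0.239 FPKM (SD, n = 3) to means of 2.45, 2.64 and 2.54 FPKM. Alpl, alkaline phosphatase, fell in all 3, with log2 changes of -1.32, -0.998 and -1.44, from 4.07 to 9.79 FPKM in wild type to at most 4.01 FPKM in 5xFAD. The calls in 5xFAD EGFP rest on its 2 libraries: Enpp1 did not pass without EGFP replicate 1 (limma adjusted p = 0.0753) nor Alpl without EGFP replicate 2 (limma adjusted p = 0.119), and Entpd7 kept its call in 2 of 5 refits with 1 library left out, losing it without either EGFP library or wild type replicate 3. With EGFP, Entpd7 also did not pass with libraries rescaled to the same sum (limma adjusted p = 0.0813), with no filter (0.0504) or with only the 2 groups fitted (0.175), and Alpl did not in the last (0.0726). The calls of Enpp1, Entpd7 and Alpl in the other 2 groups held in all 7 refits with 1 library left out.

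A further pair of hydrolases passed in PKR KO against wild type, and neither passed in a comparison within 5xFAD. Enpp2, autotaxin, which makes lysophosphatidic acid, was at 101 to 219 FPKM in wild type and 22.5 to 59.5 FPKM in PKR KO, and Enpp4 had means of 3.96 and 1.96 FPKM. Enpp2 spread from 33.7 to 199 FPKM among the circRNA libraries, and its call was lost without wild type replicate 1 (limma adjusted p = 0.0550). It is also abundant in oligodendrocytes, whose markers summed to 247.6 to 1092 FPKM in wild type, 452.6 to 488.8 FPKM in 5xFAD EGFP, 208.6 to 541.2 FPKM with circRNA and 155.9 to 249.8 FPKM in PKR KO. Enpp2 in 5xFAD EGFP, at 62.6 and 72.4 FPKM, was below every wild type library, with oligodendrocyte markers within the wild type range. Their part in the result was not tested.

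In adenosine handling, Pnp, purine nucleoside phosphorylase, fell against wild type in all 3 groups (log2 change -0.70, -0.53 and -0.65), from a wild type mean of 13.0 ± 2.75 FPKM (SD, n = 3) to 7.51, 8.64 and 7.84 FPKM. Mice carry a near-identical copy next to it, so its counts are uncertain. With 1 library left out, Pnp passed in 1 of 5 refits for EGFP (the one without wild type replicate 3), 4 of 7 for circRNA (not without wild type replicate 1 or 2 or circRNA replicate 1) and all 7 for PKR KO. With only the 2 groups fitted, it did not pass for EGFP, nor for circRNA (limma adjusted p = 0.0674). Adora1, an inhibitory adenosine receptor, passed in circRNA against wild type (log2 change 0.68, limma adjusted p = 0.0275), where wild type libraries ranged from 1.15 to 3.61 FPKM and overlapped those of circRNA (3.08 to 3.84 FPKM). Its log2 change from wild type was 0.72 in 5xFAD EGFP and 0.52 in PKR KO, neither passing (limma adjusted p = 0.0716 and 0.0611), and circRNA against EGFP was at -0.04. The circRNA call was lost with libraries rescaled to the same sum (limma adjusted p = 0.0821) and with only the 2 groups fitted (0.105), and leaving out wild type replicate 3 or 2 took the change to 1.03 or 0.48 (limma adjusted p = 7.81e-06 and 0.115). P2ry10b fell in PKR KO against wild type (log2 change -0.57), and has a close relative, P2ry10, at a mean of 0.0296 FPKM. With circRNA its change was -0.33, a call that held under 4 of 11 alternatives (highest limma adjusted p = 0.144, with quantile normalization), and with EGFP it was -0.32 and did not pass. The circRNA calls of Adora1 and P2ry10b each held in 2 of the 7 refits with 1 library left out, those without wild type replicate 3 and circRNA replicate 2.

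Of the genes for nucleotide release, Slc17a9, which loads ATP into vesicles, rose in PKR KO against wild type (0.29, limma adjusted p = 0.00803), from 2.05 to 2.72 FPKM on average, and did not pass with libraries rescaled to the same sum (limma adjusted p = 0.136). Gja1, the connexin of astrocytes, fell in the same comparison (-1.36, limma adjusted p = 0.0123), at -0.84 without wild type replicate 3 and -0.70 with the markers of other cells as a covariate, and it is itself 1 of the 5 astrocyte markers, whose sum was 60.8 to 216 FPKM in wild type and 120 to 184 FPKM in PKR KO. Alpl is abundant in brain vessels, and the endothelial markers summed to 41.6 to 94.1 FPKM in wild type and 19.5 to 54.4 FPKM in 5xFAD. The part of these cells was not tested.

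The signalling partners of P2Y12 gave no call on the deposited scale. Gnai2, the inhibitory G protein subunit of highest level here, had means of 75.8, 72.7, 85.9 and 88.2 FPKM in wild type, EGFP, circRNA and PKR KO, and Kcnk13, the THIK-1 potassium channel that P2Y12 opens in microglia, had 9.19, 10.1, 10.6 and 10.6 FPKM. Gnai1, Gnai3, Rgs10 and Arrb2 passed in no comparison on that scale either. None of the 5 other P2X genes passed the filter on low values, so none was tested in the fit used here. P2rx1 was the highest of them, at a mean of 0.927 FPKM. It was at 1.44 to 1.71 FPKM in wild type, 0.972 to 0.985 in 5xFAD EGFP, 0.822 to 1.38 with circRNA and 0.267 to 0.468 in PKR KO.

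**Figure D4:**
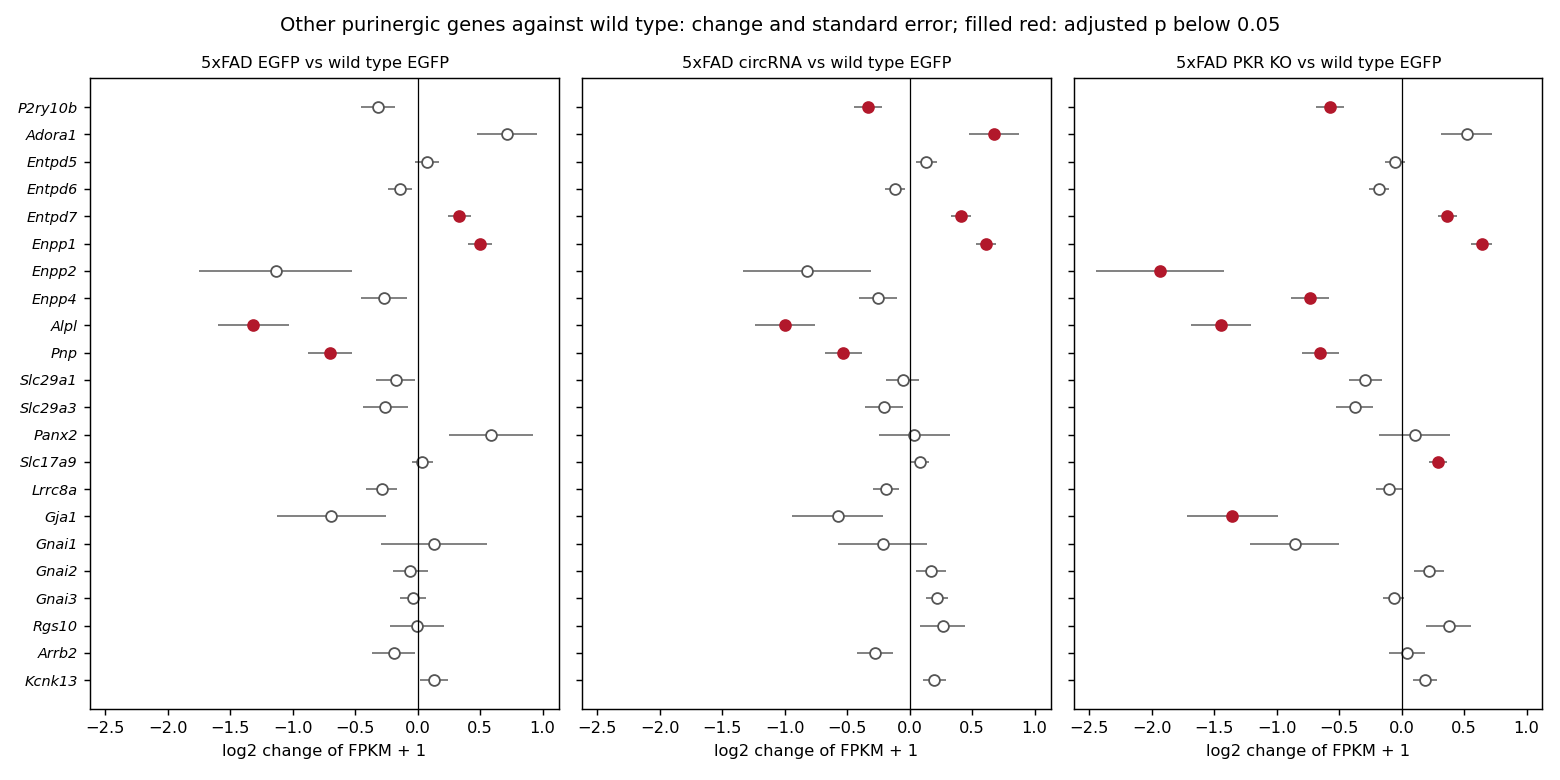
Log2 change of FPKM + 1 against wild type (horizontal axis) and standard error (lines) of the 22 other purinergic genes tested, in 5xFAD EGFP, circRNA and PKR KO, filled red where the limma adjusted p was below 0.05. Enpp1 and Entpd7 lie right of 0 and Alpl and Pnp left of 0 in all 3 panels, and the 3 panels share the wild type libraries.

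Apart from P2ry12, 15 genes of the homeostatic microglial programme were tested. Against wild type 1, 2 and 4 passed in 5xFAD EGFP, circRNA and PKR KO, all lower, which is 6.67%, 13.3% and 26.7% of the list, beside 6.35%, 8.05% and 19.4% of all genes called lower and 14%, 25.8% and 37.0% called in either direction. Tmem119, a microglial membrane protein, fell in all 3, from 300 to 461 FPKM in wild type to between 158 and 304 FPKM in 5xFAD, and its PKR KO mean of 232 FPKM was not the lowest (186 FPKM in 5xFAD EGFP). P2ry12, like Cd33, Slc2a5 and Tgfbr1 (means of 30.8, 31.3 and 85.2 FPKM there), had its lowest group mean in the PKR KO. Cd33, Slc2a5 and Tgfbr1 are named because each passed in PKR KO against wild type, so they do not stand for the list. Of all 15, 9 had a positive and 6 a negative log2 change in PKR KO against 5xFAD EGFP. With 1 library left out, Tmem119 passed in 1 of 5 refits for EGFP (the one without wild type replicate 3), all 7 for circRNA and 4 of 7 for PKR KO (not without wild type replicate 1 or 2 or PKR KO replicate 4). With only the 2 groups fitted it did not pass for EGFP (limma adjusted p = 0.0987). Cd33, a sialic acid-binding receptor, fell in PKR KO against wild type in all 7 such refits. With circRNA its call held in 1 of 7, the one without wild type replicate 3, and reached a limma adjusted p of 0.156. Slc2a5 and Tgfbr1 fell in PKR KO against wild type, but Slc2a5 did not pass without wild type replicate 1 (limma adjusted p = 0.0502) nor Tgfbr1 without wild type replicate 1 or 2 (0.0835 and 0.0646). In the 3 comparisons within 5xFAD limma called 0 of these 15, with 0, 0 and 2 at an unadjusted p below 0.05 for circRNA against EGFP, PKR KO against EGFP and circRNA against PKR KO.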

How the data were processed

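Libraries were stranded and made from microglial RNA extracted with TRIzol and depleted of ribosomal RNA, per the labels' protocols. The deposited table holds FPKM values made by the authors. The submitters' processing notes name Bowtie2 2.3.5, HISAT2 2.1.0, featureCounts 1.5.1 and mm10, without their roles; annotation and strand setting are not given in the sources used here. The members and gene lists were chosen with earlier results of these data known.

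Log2(FPKM + 1) of the 10817 genes averaging 1 FPKM or more was fitted with limma 3.58.1 (R 4.3.3), 1 mean per group over all 13 libraries (9 residual degrees of freedom), with a trended prior and two-sided tests. Passing means a Benjamini-Hochberg adjusted p below 0.05 over all genes tested. Fold changes are on the log2(FPKM + 1) scale, which understates the change of low genes. Fragments were recovered from the steps of low values with exon lengths from GENCODE M21: 91.1% to 93.5% of low values came out whole within 0.03, where chance gives 6%. A limma voom fit on these fragments was 1 of 11 alternatives, with leaving out each library. Named genes are all 8 members and, from the wider list, those that passed in any comparison or, where a role had none, those of at least 1 FPKM. From the homeostatic list those that passed are named. Neighbours and ratios were chosen after the values were seen. Replicate numbers were not taken to pair the libraries.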

Additional observations from a re-analysis of the deposited data

How the results depend on the processing

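Over all 42 changes of members and 735 refits, 49 refits of 16 changes gave the opposite sign, none of a change that had passed and none that passed itself; those of changes whose values the text gives are listed here. The 2 libraries of 5xFAD EGFP limit every comparison with that group. The cause of each shift was not tested, apart from fits with fewer libraries or with more genes tested. P2ry14 rests on 33 to 170 fragments. The main counts were 1, 0, 0, 1, 3 and 2 members and 4, 0, 0, 6, 9 and 0 of the wider list, for EGFP against wild type, circRNA against EGFP, PKR KO against EGFP, circRNA against wild type, PKR KO against wild type and circRNA against PKR KO. Counts within 1.5 times of these are not repeated, and shares of all genes follow, for the comparisons named, in this order. With libraries rescaled to the same sum, the members passing were 3 in EGFP against wild type, 4 in circRNA against wild type and 5 in PKR KO against wild type; those of the wider list passing were 11 in circRNA against wild type, 15 in PKR KO against wild type and 1 in circRNA against PKR KO; all genes passing were 34.3%, 52.5%, 61.0% and 6.31%; the log2 changes that changed sign were P2rx4 -0.0295 in circRNA against EGFP. With quantile normalization, the members passing were 4 in EGFP against wild type, 5 in circRNA against wild type and 5 in PKR KO against wild type; those of the wider list passing were 7 in EGFP against wild type, 14 in PKR KO against wild type and 2 in circRNA against PKR KO; all genes passing were 18.2%, 29.2%, 35.9% and 4.72%; the log2 changes that changed sign were P2rx4 -0.0177 in circRNA against EGFP. With only the 2 groups compared in the fit, the members passing were 0 in EGFP against wild type and 1 in PKR KO against EGFP; those of the wider list passing were 1 in EGFP against wild type, 2 in PKR KO against EGFP, 3 in circRNA against wild type and 1 in circRNA against PKR KO; all genes passing were 4.71%, 5.33%, 15.9% and 8.26%. With limma library weights, the members passing were 3 in EGFP against wild type, 1 in PKR KO against EGFP, 3 in circRNA against wild type and 5 in PKR KO against wild type; those of the wider list passing were 8 in EGFP against wild type, 2 in PKR KO against EGFP and 9 in circRNA against PKR KO; all genes passing were 20.7%, 7.60%, 27.2%, 37.1% and 29.2%. With the summed markers of other cells as a covariate, the members passing were 3 in EGFP against wild type, 3 in circRNA against wild type, 6 in PKR KO against wild type and 5 in circRNA against PKR KO; those of the wider list passing were 8 in EGFP against wild type, 10 in circRNA against wild type and 6 in circRNA against PKR KO; all genes passing were 24.2%, 33.1%, 38.4% and 16.7%. With no filter, the members passing were 1 in circRNA against PKR KO; those of the wider list passing were 7 in EGFP against wild type, 11 in circRNA against wild type, 20 in PKR KO against wild type and 1 in circRNA against PKR KO; all genes passing were 10.4%, 19.5%, 31.1% and 2.46%. With a filter of 0.1 FPKM, the members passing were 1 in circRNA against PKR KO; those of the wider list passing were 8 in EGFP against wild type, 12 in circRNA against wild type, 16 in PKR KO against wild type and 1 in circRNA against PKR KO; all genes passing were 14.1%, 25.3%, 38.7% and 3.60%. With median-ratio scaling, the members passing were 1 in PKR KO against EGFP, 2 in circRNA against wild type and 1 in circRNA against PKR KO; those of the wider list passing were 1 in circRNA against PKR KO; all genes passing were 0.425%, 27.9% and 7.81%; the log2 changes that changed sign were P2rx4 -0.0034 in circRNA against EGFP, and Entpd1 0.0539 in PKR KO against wild type. With voom on recovered fragments, those of the wider list passing were 1 in circRNA against PKR KO; all genes passing were 7.30%. Leaving out 1 library at a time, the members passing were 0 to 3 in EGFP against wild type, 1 to 3 in circRNA against wild type, 3 to 5 in PKR KO against wild type and 0 to 2 in circRNA against PKR KO, and those of the wider list 1 to 7 in EGFP against wild type, 3 to 8 in circRNA against wild type and 0 to 1 in circRNA against PKR KO. Sign changes when 1 library was left out gave ranges of -0.36 to 0.0374 for P2ry6 in PKR KO against wild type and -0.25 to 0.0731 for Entpd1 in PKR KO against wild type.

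Replicate numbers were shared between groups, and the labels give them no shared animal, batch or day. In each of the 3 comparisons with 3 or more pairs, at least 1 same-numbered pair had a correlation of deviations under 0.1 (lowest -0.42, -0.18 and 0.0363 for circRNA against wild type, PKR KO against wild type and circRNA against PKR KO), so the numbers were not taken to pair the libraries. As a hint the other way, the mean over same-numbered pairs was positive in all 6 comparisons, which share groups, at 0.0223 to 0.33. The deviations are from group means, so the mean over other pairs is tied to it and adds little. In PKR KO against EGFP 4 of 4 libraries correlated best with their own number, beside 2 of 8 in circRNA against PKR KO. The deviations of the 2 EGFP libraries mirror each other, which partly fixes the first of these counts. Fitted with a block for the replicate number, the members passing were 1 in circRNA against PKR KO, those of the wider list passing were 1 in circRNA against PKR KO, and the log2 changes that changed sign were Entpd1 0.030 in PKR KO against wild type. P2ry13 in circRNA against PKR KO was at a limma adjusted p of 0.0604 under the block, and no other call of a member changed. Of the wider list, Entpd7 in EGFP against wild type (0.0696) and, in circRNA against wild type, P2ry10b (0.0767) and Pnp (0.0528) did not pass under it.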
